A study of Rattus norvegicus with 66 samples.

Results

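Male pups of dams given the PCB mixture Aroclor 1254 were compared directly with male pups of dams given the insecticide chlorpyrifos, each at the higher of its 2 doses, without controls. The members are every library of the high-dose groups Aro5 and CPF3 whose pup name ends in y, the mark of a male pup, which gave 6 Aro5 and 7 CPF3 pups, 13 of the 66 libraries of the series. RNA was taken from the dorsal hippocampus of Long Evans rats on postnatal day (PND) 6, and the dissection carried a small part of the neighbouring neocortex. Aro5 dams received 5 mg/kg of Aroclor 1254 in chow from before mating through pregnancy and lactation. CPF3 dams received 3 mg/kg of chlorpyrifos by subcutaneous injection in pregnancy and again after birth, with dimethyl sulfoxide as the solvent. Chemical, dose, route, solvent and start of exposure therefore change together and cannot be told apart. Body weight may go with them, since the paper reports lighter pups in the injection controls than in the feeding controls. Aro5 pups came from 5 litters, since 120-1y and 120-2y are littermates, and CPF3 pups from 7. Pups were dissected between 9.45 and 15.45 h in Aro5 and between 10.32 and 13.01 h in CPF3.

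Aroclor 1254 is a mixture of chlorinated biphenyls. Some of its members bind the aryl hydrocarbon receptor, which switches on the P450 enzymes Cyp1a1 and Cyp1b1, while others are known to sensitise ryanodine receptors and to lower thyroid hormone in the blood. Chlorpyrifos is an organophosphate whose oxidised form blocks acetylcholinesterase, the enzyme that ends cholinergic signalling, and other serine hydrolases. The early postnatal hippocampus is still adding dentate granule cells and wiring its interneurons.

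Library totals were 16193589 to 35045302 counts in Aro5 and 11179635 to 27089261 in CPF3. The Y-linked genes Kdm5d and Eif2s3y had at least 366 and 963 counts in each of the 13 libraries and 0 in the Aro5 and CPF3 females, as the sex labels require. Libraries of 1 group differed far beyond sampling noise, with a chi-square per gene of 10.9 to 101 over 36 pairs, so that no library was counted as a repeat of another. The group accounted for 7.81% of the variation in log2 CPM over all genes tested, where 1 of 12 degrees of freedom alone would carry 8.33%. CPM stands for counts per 1000000 counts of a library.

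No gene passed the test of a difference between Aro5 and CPF3 males. The quasi-likelihood test of edgeR covered 16312 genes, with p-values adjusted over all of them after Benjamini and Hochberg. An adjusted p under 0.05 was reached by 0 genes (0%), and the lowest was 0.44. An unadjusted p under 0.05 was found for 324 genes (1.99%), 162 higher in Aro5 (0.993%) and 162 lower (0.993%). DESeq2 called 1 gene (0.00613%), Slfn4. For most genes a large difference lies outside the interval of the estimate: the 95% interval of the difference lay within 2-fold either way for 15421 genes (94.5%) and within 1.5-fold for 12149 (74.5%). The median standard error was 0.13 on the log2 scale. Intervals and p-values assume independent pups, and 2 Aro5 pups shared a litter.

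**Figure D1:**
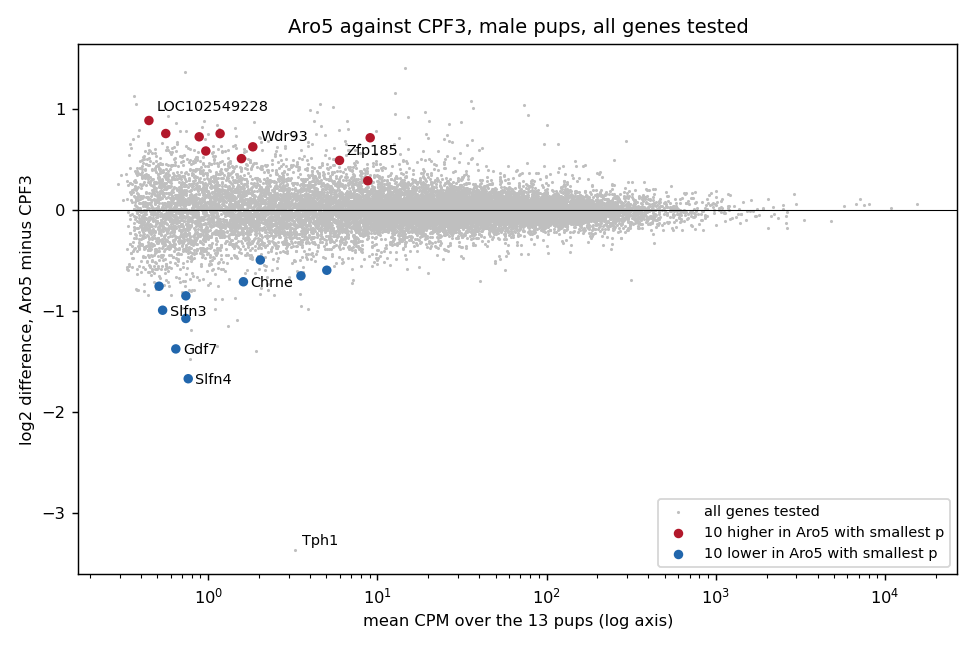
Fitted log2 difference, Aro5 minus CPF3 (vertical axis), against mean CPM over the 13 pups (horizontal log axis) for each of the 16312 genes tested. Red and blue points are the 10 genes with the smallest p on each side, none with an adjusted p under 0.05 by edgeR, and they sit among the genes of low count. Tph1, far below the rest at -3.36, rests on 1 CPF3 pup.

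Slfn4 had the smallest p of all genes. It belongs to the Schlafen family, genes of immune cells that interferon is known to induce. The files pair the name Slfn4 with the NCBI gene that RefSeq now calls Slfn3, and the name Slfn3 with the one now called Slfn4. Names are kept here as the files give them, and reads of these related genes may be split between them. In counts, Slfn4 had 6, 10, 5, 20, 16 and 2 in the Aro5 pups 108-1y, 115-14y, 116-6y, 117-4y, 120-1y and 120-2y. In the CPF3 pups 35-5y, 36-3y, 38-1y, 40-3y, 43-6y, 44-2y and 45-1y it had 27, 17, 30, 11, 31, 24 and 29. Per library total every Aro5 pup was below every CPF3 pup, at 0.334 ± 0.181 CPM (SD, n = 6) against 1.13 ± 0.235 CPM (SD, n = 7). The log2 difference was -1.67 (SE 0.28, 95% interval -2.27 to -1.07), with an adjusted p of 0.44 by edgeR and 0.000907 by DESeq2. With the 7 BPA5 males added to the edgeR fit, the adjusted p was 0.0586. These BPA5 pups had 8 to 59 counts, 0.649 to 1.61 CPM, above all Aro5 pups. CONF males, the feeding controls, had 0.796 to 1.57 CPM, and CONSC males, the injection controls, 0.166 to 1.58 CPM.

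Slfn3 had 5 to 15 counts in Aro5 and 6 to 25 in CPF3. Its levels were 0.352 ± 0.138 CPM (SD, n = 6) and 0.697 ± 0.155 CPM (SD, n = 7), a log2 difference of -0.99 (SE 0.26) with an adjusted p of 0.981 by edgeR. The groups met only where Aro5 116-6y, at 0.539 CPM, just passed the lowest CPF3 pup at 0.537 CPM. Of other Schlafen genes, named after their values were seen, Slfn2 stood at 0.07 (SE 0.14), Slfn5 at -0.05 (SE 0.13) and Slfn13 at -0.09 (SE 0.12) on the log2 scale. The interferon response list, 19 genes tested, had 0 genes higher and 1 lower at an unadjusted p under 0.05, against 1.99% of all genes. Its median log2 difference was -0.06, against -0.01 over all genes. The 1 was Oas1a, a double-stranded RNA sensor, at -0.74 (SE 0.25, adjusted p = 0.981 by edgeR), with 5 to 17 counts in Aro5 and 8 to 24 in CPF3. Psmb9, an interferon-inducible proteasome subunit and next in the list, stood at -0.36 (SE 0.23).

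The promoters of the Schlafen pair and of Oas1a are shown because Slfn4 had the smallest p, Slfn3 was among the 10 genes named on the same side and Oas1a was the lowest of the interferon list. Each runs from 250 bases before to 50 after the start of the gene, from RefSeq, build GRCr8, matched by gene number and written 5′ to 3′ along the gene. They lie at chr10:68519277-68519576 (+) for Slfn4, chr10:68491970-68492269 (+) for Slfn3 and chr12:41330216-41330515 (+) for Oas1a. Capitals mark the core of the interferon-stimulated response element, which is GAAA, any 2 bases and GAAA again, on either strand. Its matches may overlap. The letters stand in 3.77% of 27457 promoters, 1 a gene, and in 10 of 14 promoters of the interferon response list.
Slfn4: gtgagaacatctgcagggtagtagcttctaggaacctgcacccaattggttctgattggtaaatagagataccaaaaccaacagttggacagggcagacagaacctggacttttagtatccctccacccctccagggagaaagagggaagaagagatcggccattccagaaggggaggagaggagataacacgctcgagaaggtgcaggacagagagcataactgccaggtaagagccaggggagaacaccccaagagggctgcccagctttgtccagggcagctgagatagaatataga
Slfn3: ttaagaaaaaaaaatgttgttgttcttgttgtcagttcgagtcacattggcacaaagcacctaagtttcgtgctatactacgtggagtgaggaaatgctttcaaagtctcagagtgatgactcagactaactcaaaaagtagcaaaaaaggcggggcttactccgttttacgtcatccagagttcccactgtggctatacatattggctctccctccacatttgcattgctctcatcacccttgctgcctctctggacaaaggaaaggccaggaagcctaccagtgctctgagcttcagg
Oas1a: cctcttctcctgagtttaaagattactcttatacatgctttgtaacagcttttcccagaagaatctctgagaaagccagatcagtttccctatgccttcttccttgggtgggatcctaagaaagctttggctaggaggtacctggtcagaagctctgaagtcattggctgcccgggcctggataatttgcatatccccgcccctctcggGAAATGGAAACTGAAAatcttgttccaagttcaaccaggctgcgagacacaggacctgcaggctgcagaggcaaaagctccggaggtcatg
The Oas1a window held 2 overlapping matches, and neither Schlafen window held these letters.

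The other genes low in Aro5 with the smallest p did not pass the threshold either. Tepp, a testis and prostate transcript, had 0.522 ± 0.13 CPM in Aro5 and 0.923 ± 0.172 CPM in CPF3 (SD, n = 6 and 7), and 5 of 6 Aro5 pups lay below all CPF3 pups. Chrne, the epsilon subunit of the muscle nicotinic receptor, had 1.19 ± 0.254 against 1.98 ± 0.419 CPM, and CPF3 45-1y, at 1.17 CPM, lay inside the Aro5 range. Ier3, an immediate early gene of cell survival, had 1.66 ± 0.152 against 2.35 ± 0.361 CPM. Gdf7, a growth factor of the dorsal midline, stood at -1.38 (SE 0.43) with 3 to 14 counts in Aro5 and 6 to 38 in CPF3. Idnk, a gluconate kinase, stood at -0.60 (SE 0.16), Krt2, a keratin, at -0.65 (SE 0.19), the class I histocompatibility gene RT1-CE4 at -1.07 (SE 0.32) and LOC102547078 at -0.76 (SE 0.19).

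Among the 10 genes high in Aro5 with the smallest p, Wdr93, a gene with WD repeats, had 2.26 ± 0.376 CPM in Aro5 and 1.47 ± 0.326 CPM in CPF3, with 5 of 6 Aro5 pups above all CPF3 pups. Ttll6, an enzyme that adds glutamate chains to tubulin of cilia, had 1.87 ± 0.401 against 1.32 ± 0.169 CPM. Zfp185, a LIM domain protein of the actin skeleton, had 7.09 ± 1.7 against 5.01 ± 0.899 CPM. Fan1, a nuclease of DNA repair, stood at 0.29 (SE 0.10), the protease gene Prss30 at 0.58 (SE 0.19) and Prrg4, a membrane protein with a Gla domain, at 0.75 (SE 0.26). The uncharacterised LOC102549228, LOC102555866, LOC102549059 and LOC102555900 stood between 0.71 and 0.88. All had an adjusted p of 0.981 by edgeR. Over all genes tested, the CPM ranges of the groups did not overlap in 5 (0.0307%): LOC102549228 was higher in Aro5, and Slfn4, Snrpg, Gmfg and Psmb11 were lower, the last 3 named after their values were seen.

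**Figure D2:**
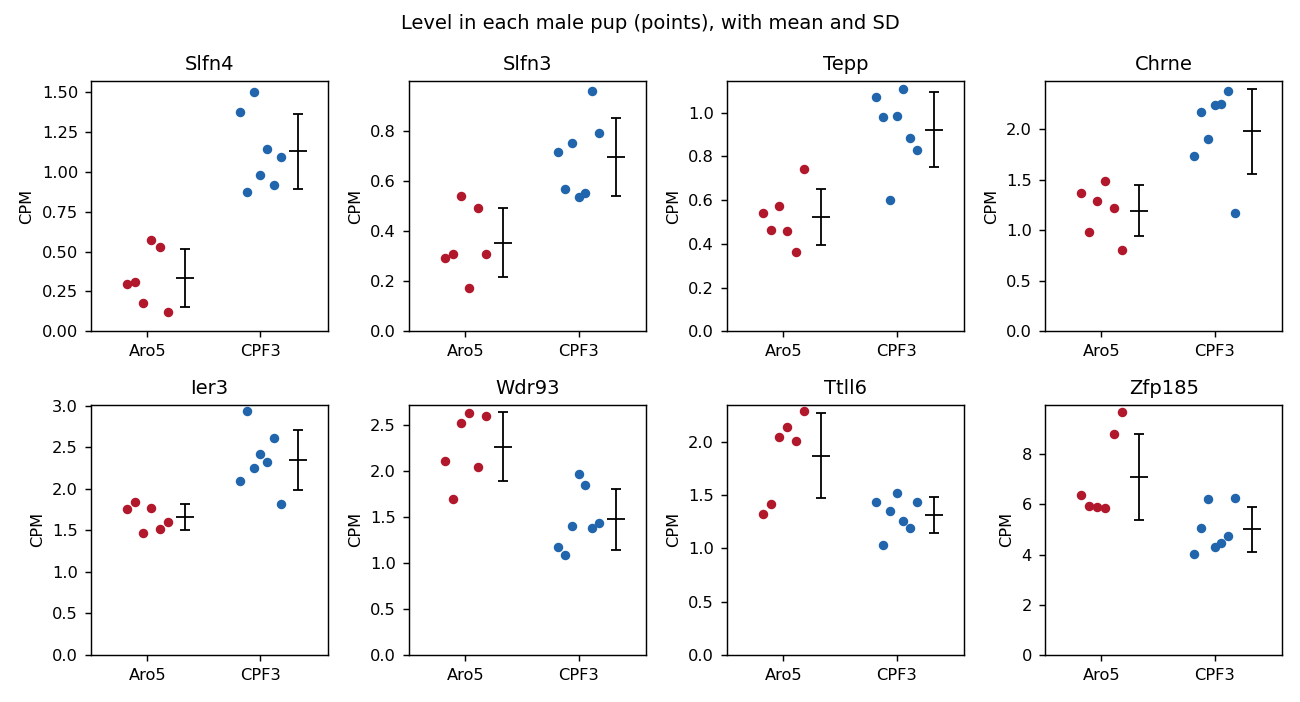
CPM of 8 of the named genes in each male pup (vertical axis from 0; points, 6 Aro5 and 7 CPF3), with the mean and SD of each group beside them. Slfn4 is the gene here without overlap, 0.124 to 0.571 CPM in Aro5 and 0.877 to 1.5 CPM in CPF3.

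The pathways that these chemicals are known to touch showed no gene past the threshold in edgeR or DESeq2. Of 11 tested genes of the aryl hydrocarbon receptor list, 0 had an unadjusted p under 0.05, against 1.99% of all genes, and all 11 intervals lay within 2-fold either way. The median log2 difference of the list was -0.01. Cyp1b1 had 1.86, 4.89, 1.97, 3.91, 4.25 and 1.36 CPM in the Aro5 pups in the order given for Slfn4, and 4.5, 2.53, 4.06, 3.76, 4.39, 5.76 and 2.08 CPM in CPF3. The groups overlapped almost fully, with a log2 difference of -0.32 (SE 0.30, 95% interval -0.97 to 0.32). Tiparp, an ADP-ribosyltransferase and feedback target of the receptor, stood at 0.15 (95% interval -0.17 to 0.48), the quinone reductase Nqo1 at -0.01 (-0.25 to 0.22) and the receptor Ahr itself at 0.24 (-0.39 to 0.87). Cyp1a1 had 2 to 9 counts in Aro5 and 0 to 5 in CPF3, and Ahrr, the receptor's repressor, 4 to 14 and 3 to 8. Both were too low to be tested.

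For the receptor's classic targets the binding letters can be seen in the promoters of Cyp1b1, chr6:21094315-21094614 (+), and Tiparp, chr2:152063519-152063818 (+), taken from the same RefSeq table. Capitals mark GCGTG, the core of the xenobiotic response element, on either strand (CACGC when read in reverse).
Cyp1b1: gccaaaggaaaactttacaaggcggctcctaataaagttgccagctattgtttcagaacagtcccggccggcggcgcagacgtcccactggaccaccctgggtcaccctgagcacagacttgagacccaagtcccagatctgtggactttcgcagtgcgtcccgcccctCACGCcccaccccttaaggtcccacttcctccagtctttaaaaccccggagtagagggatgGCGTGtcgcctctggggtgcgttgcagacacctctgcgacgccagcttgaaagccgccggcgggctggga
Tiparp: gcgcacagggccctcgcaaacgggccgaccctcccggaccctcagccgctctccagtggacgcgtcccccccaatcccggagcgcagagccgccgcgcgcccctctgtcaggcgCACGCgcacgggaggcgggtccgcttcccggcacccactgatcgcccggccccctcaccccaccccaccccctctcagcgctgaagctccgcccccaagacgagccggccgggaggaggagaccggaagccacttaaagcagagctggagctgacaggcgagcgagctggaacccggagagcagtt
The window of Cyp1b1 held 2 matches and that of Tiparp 1. The Slfn4 window printed above also held 1, left there in small letters. The letters stand in 31.1% of all 27457 promoters and in 8 of 13 of this list, and no difference between the groups was detected for Cyp1b1 or Tiparp.

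The list of P450 and transport genes controlled by CAR and PXR had 1 of 10 tested genes with an unadjusted p under 0.05, against 1.99% of all genes. This was the drug exporter Abcb1b, at -0.34 (SE 0.15). Cyp2b1, a classic target of the less planar biphenyls in liver, was listed at 0 in all 13 pups. Of 22 cholinesterase and cholinergic genes, 0 had an unadjusted p under 0.05, and 17 intervals lay within 2-fold. The nicotinic subunit Chrne, named above among the genes low in Aro5, is not on this list. It stood at -0.71, with an unadjusted p of 0.00195 and an adjusted p of 0.981 by edgeR. Acetylcholinesterase (Ache) had 38.8 to 68.2 CPM in Aro5 and 45.3 to 96.2 CPM in CPF3, a log2 difference of -0.10 (95% interval -0.47 to 0.27), and butyrylcholinesterase (Bche) stood at 0.12 (-0.33 to 0.56). The muscarinic receptors Chrm1 and Chrm4 stood at 0.09 (SE 0.24) and 0.45 (SE 0.28), the nicotinic subunits Chrna7 and Chrna4 at 0.04 (SE 0.28) and -0.21 (SE 0.15). These are levels of mRNA, and enzyme activity was not measured. Of 15 genes for serine hydrolases and the endocannabinoid system 0 had such a p and all 15 intervals lay within 2-fold. Mgll, which degrades 2-arachidonoylglycerol, stood at 0.07 (SE 0.12) and Pnpla6, the neuropathy target esterase, at -0.06 (SE 0.13).

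Of 19 thyroid hormone genes, 0 had an unadjusted p under 0.05, with a median log2 difference of 0.02, and 16 intervals lay within 2-fold. The hormone-responsive genes Klf9, Hr and Nrgn stood at 0.41 (SE 0.29), 0.02 (SE 0.26) and 0.01 (SE 0.30), and the receptor Thrb at 0.38 (SE 0.22). Dio3, which inactivates the hormone, had 6 to 53 counts in Aro5 and 0 to 30 in CPF3 and stood at 0.78 (SE 0.64). The retinoid X receptor Rxrg, a partner of thyroid receptors, stood highest in the list at 1.01 (SE 0.61, 95% interval -0.30 to 2.32). Of 21 calcium release channels and partners 0 had such a p, and all 21 intervals lay within 2-fold. The ryanodine receptors Ryr1, Ryr2 and Ryr3 stood at -0.11 (SE 0.15), 0.13 (SE 0.19) and 0.02 (SE 0.15), and the endoplasmic reticulum pump Atp2a2 at 0.16 (SE 0.09).

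Because 1 group was fed and the other injected, lists of stress, activity and feeding were read as well. Of 18 genes of the glucocorticoid system, 0 were higher and 1 was lower at an unadjusted p under 0.05, against 1.99% of all genes. That was Mt2A, a metallothionein that binds zinc, at 9.51 ± 3.14 CPM in Aro5 and 13.8 ± 2.59 CPM in CPF3 (SD, n = 6 and 7), a log2 difference of -0.54 (SE 0.20, adjusted p = 0.981 by edgeR). Without CPF3 36-3y and both pups of litter 120 it was -0.26. The chaperone Fkbp5 and the receptor Nr3c1 stood at -0.09 (SE 0.10) and 0.28 (SE 0.17). Of 23 immediate early genes, 1 was higher and 2 were lower at such a p: Npas4, which follows neuronal activity, at 0.73 (SE 0.30) and at 0.46 without Aro5 116-6y, Ier5 at -0.29 (SE 0.09) and the phosphatase Dusp6 at -0.25 (SE 0.09). Fos and Arc stood at -0.38 (SE 0.20) and 0.22 (SE 0.25). Of 20 clock genes the nuclear receptor Rorb alone had such a p, at 0.37 (SE 0.14), while Per1 and Per2 stood at -0.07 (SE 0.15) and -0.16 (SE 0.10). Of 19 genes of fasting and fatty acid use, 23 of cholesterol synthesis, 17 of the Nrf2 antioxidant response and 25 of dividing cells, 0 had an unadjusted p under 0.05, and all these intervals lay within 2-fold. Plin2, a coat protein of lipid droplets, stood at -0.11 (SE 0.08), Insig1, a brake of sterol synthesis, at -0.09 (SE 0.09), Hmox1, which breaks down heme, at -0.42 (SE 0.27) and the mitotic kinase Cdk1 at -0.15 (SE 0.10).

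Of 15 tested steroid receptor and neurosteroid genes, 1 had an unadjusted p under 0.05, against 1.99% of all genes. Cyp19a1, the aromatase that makes estradiol, had 1.33 CPM on average in Aro5 and 0.944 in CPF3, a log2 difference of 0.47 (SE 0.19, adjusted p = 0.981 by edgeR). It was highest in Aro5 120-2y, at 2.1 CPM, with 1.08 to 1.28 CPM in the other Aro5 pups. The estrogen receptor Esr1 stood at 0.25 (SE 0.17).

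The study followed 18 Sox, Pou and signalling genes, which set the fate and wiring of young neurons, and 9 interneuron genes. These were chosen by the study on samples that include these pups. The paper reports Sox5 as unchanged and some other Sox and Pou genes as affected by only some of the chemicals. It still lists the first set together as similarly affected genes. A lack of difference between Aro5 and CPF3 is therefore partly built into that choice. Of the 19 tested entries of the first list, 0 had an unadjusted p under 0.05, and 17 intervals lay within 2-fold either way. Sox6, a factor of interneuron maturation, stood at 0.22 (95% interval -0.15 to 0.59), Sox2, of neural stem cells, at -0.10 (-0.36 to 0.16), Sox4 at -0.14 (-0.39 to 0.11), Sox5 at 0.08 (-0.11 to 0.27) and Sox11 at -0.14 (-0.57 to 0.30). Pou3f2 and Pou3f3, of upper layer and hippocampal neurons, stood at -0.03 (-0.48 to 0.43) and -0.07 (-0.34 to 0.19), and Pou2f1 at -0.27 (-0.70 to 0.16). The neuregulin receptor Erbb4 stood at 0.25 (-0.30 to 0.80), its ligand Nrg1 at 0.08 (-0.17 to 0.34), the Wnt receptor Fzd3 at 0.39 (-0.15 to 0.94) and Notch2 at 0.02 (-0.32 to 0.36). The Wnt effector Tcf7l2 had the widest interval, -1.99 to 0.60 around -0.69, in the second of its 2 entries.

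Of the 8 tested interneuron entries, Cck alone had an unadjusted p under 0.05, against 1.99% of all genes. This peptide of a basket cell class had 47.3, 63.3, 38.3, 50.3, 42 and 19.4 CPM in the Aro5 pups and 60.2, 96.6, 50, 58, 57.4, 62.4 and 43.9 CPM in the CPF3 pups, in the order given for Slfn4. Aro5 120-2y was lowest and CPF3 36-3y highest, and the other pups overlapped. The log2 difference was -0.49 (SE 0.22, adjusted p = 0.981 by edgeR), and -0.15 without CPF3 36-3y and both pups of litter 120. Sst, Nos1, Reln and Vip stood at -0.05 (SE 0.23), 0.03 (SE 0.24), -0.08 (SE 0.08) and 0.08 (SE 0.28). The calcium binding proteins Pvalb and Calb2 stood at -0.30 (SE 0.44) and -0.11 (SE 0.22), and the serotonin receptor Htr3a at 0.35 (SE 0.21). Npy was listed at 0 in all 13 pups.

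**Figure D3:**
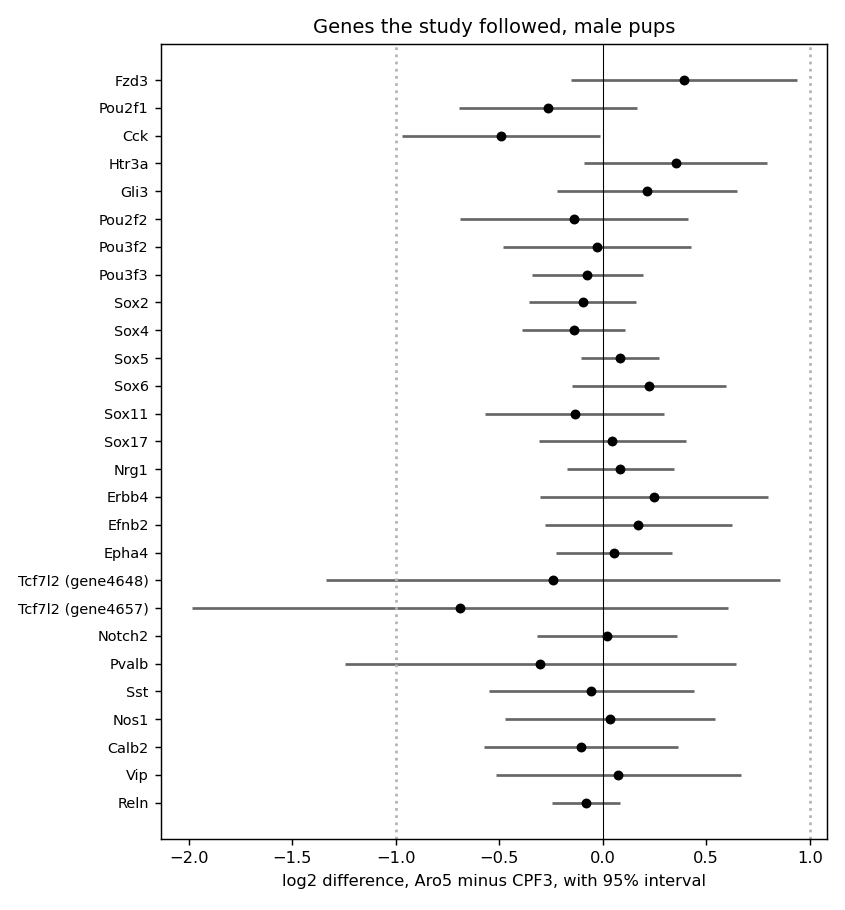
Fitted log2 difference, Aro5 minus CPF3 (horizontal axis), with its 95% interval for the tested entries of the genes the study followed. Dotted lines mark 2-fold either way. Cck, at -0.49, is the entry whose interval leaves out 0, and the entries of Tcf7l2 and Pvalb reach past the lower dotted line.

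The ratio of KCC2 (Slc12a5), the transporter that lets chloride out of maturing neurons, to NKCC1 (Slc12a2), which brings it in, marks how far inhibition has matured. The ratio of counts had its lowest, median and highest value at 1.82, 3 and 3.53 in Aro5 and 1.87, 2.55 and 4.01 in CPF3. On the log2 scale the groups differed by 0.01, with an exact two-sided permutation p of 0.944 over 1716 splits. The Pvalb/Nos1 ratio was 0.181 ± 0.138 in Aro5 and 0.237 ± 0.16 in CPF3 (SD, n = 6 and 7; log2 difference -0.50, exact permutation p = 0.523). Over these 2 ratios both adjusted values were 0.944. The spread within groups was wide for Pvalb/Nos1, with SDs of 1.49 and 1.28 on the log2 scale. Its log2 difference was -0.0048 without Aro5 116-6y (exact permutation p = 0.995) and -0.99 with only the 11 pups inside the time window 10.30 to 13.20 h (exact permutation p = 0.273).

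The GABA list had a median log2 difference of 0.27 over 18 genes, Aro5 minus CPF3, against -0.01 over all genes. Of its genes, 2 had an unadjusted p under 0.05, against 1.99% of all genes. Gad2, which makes GABA at terminals, had 26.5 to 92.4 CPM in Aro5 and 22.4 to 54.3 CPM in CPF3, and stood at 0.60 (SE 0.27). Abat, which breaks GABA down, stood at 0.33 (SE 0.15), Gad1 at 0.35 (SE 0.16) and the vesicular transporter Slc32a1 at 0.21 (SE 0.35), each with an adjusted p of 0.981 by edgeR. Without Aro5 120-2y, Gad2 stood at 0.33 and Abat at 0.21, and neither had an unadjusted p under 0.05. The striatum markers leaned the same way. All 12 of them had fitted differences above 0, from 0.34 upward, with a median of 0.75, where 7765 of all 16312 genes were above 0. Only 1 of the 12 intervals lay within 2-fold either way. An unadjusted p under 0.05 was reached by 2, against 1.99% of all genes, among them the dopamine receptor Drd1 at 1.08 (SE 0.46). The 12 were measured in the same pups and are not 12 independent results. With the summed thalamus and striatum markers as covariates, a setting added after the data were seen, Gad2 stood at 0.18, Abat at 0.15 and Npas4 at 0.30. Drd1 stood at 0.34 there, but it is itself part of the striatum sum, so its fall was built in. Why the GABA and striatum lists leaned the same way was not tested. Of 17 glutamate receptor genes, Gria1 alone had such a p, at 0.19 (SE 0.09), and of 10 chloride cotransporter genes 0 had one.

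Within each group, the pups differed widely in genes of neighbouring brain regions. The summed thalamus markers ranged over 377 to 1493 CPM in Aro5 (median 723) and 440 to 1662 CPM in CPF3 (median 1159), 4.41-fold over the 13 pups. The median log2 difference of the 13 thalamus entries was -0.23, and 1 entry had an unadjusted p under 0.05, against 1.99% of all genes. That entry was Rorb, which is also on the clock and neocortex lists, at 0.37 (SE 0.14). Tcf7l2, which is also a defining gene of thalamic neurons, had 23.7 CPM in Aro5 116-6y and 707 CPM in CPF3 38-1y, 29.9-fold apart. The summed striatum markers ranged over 299 to 1418 CPM in Aro5 (median 777) and 349 to 1050 CPM in CPF3 (median 370). In Aro5, pups 108-1y, 116-6y and 120-2y were above 900 CPM. In CPF3, 45-1y stood alone at 1050 CPM, with 349 to 454 CPM in the other 6. Drd1 stood at 1.08 with all pups, at 1.62 without CPF3 45-1y (adjusted p = 0.951 by edgeR) and at 0.65 without Aro5 120-2y (unadjusted p = 0.145 in edgeR).

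Markers of the hippocampus itself were present in every pup. The CA1 list summed to 328 to 622 CPM in Aro5 and 285 to 661 CPM in CPF3, the CA3 list to 372 to 677 and 427 to 654 CPM, and the dentate gyrus list to 251 to 373 and 258 to 418 CPM. In each of these lists 1 gene had an unadjusted p under 0.05, where the share over all genes was 1.99%: Man1a1 of CA1 at 0.51 (SE 0.20), Coch of CA3 at 0.51 (SE 0.22) and Calb1 of the dentate gyrus at 0.40 (SE 0.19). Without Aro5 120-2y they stood at 0.33, 0.32 and 0.22. The median log2 difference was -0.03 for the CA1 list, -0.17 for CA3 and -0.07 for the dentate gyrus, against -0.01 over all genes. Fibcd1, a CA1 marker with 2 entries in the gene table, was listed at 0 throughout, as were the matrix genes Ogn and Col1a2 of the meningeal list, which also have 2 entries each. The neuron list differed by 1.2-fold over the 13 pups, from 9259 to 11085 CPM, and the endothelial and pericyte list by 1.15-fold. Choroid plexus markers ranged from 1164 to 3176 CPM in Aro5 and 1733 to 3004 CPM in CPF3, and red blood cell markers from 172 to 287 and 103 to 430 CPM. In whole tissue, fewer cells of a type and less RNA per cell cannot be told apart.

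**Figure D4:**
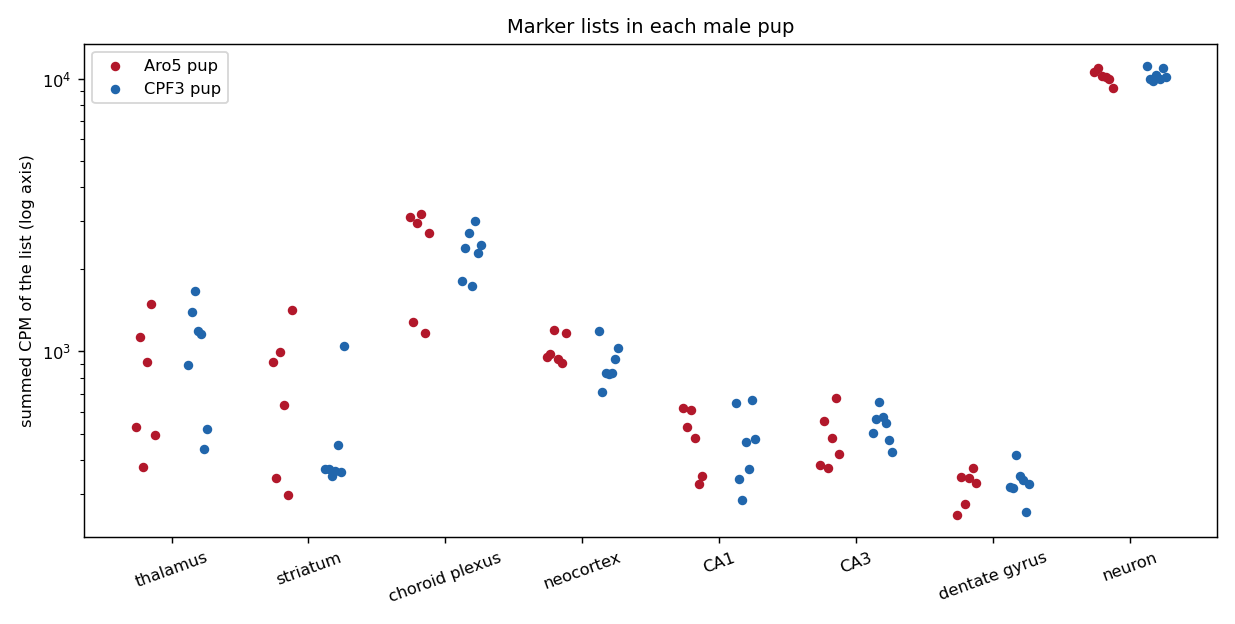
Summed CPM of 8 marker lists (vertical log axis) in each of the 6 Aro5 (red) and 7 CPF3 (blue) male pups. The thalamus and striatum lists spread 4.41-fold and 4.75-fold over the 13 pups, while the neuron list spreads 1.2-fold.

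The genes the study followed included some that went with these markers from pup to pup. Over the 13 pups, 54 relations were computed between the 27 tested study entries and the log2 sums of thalamus or striatum markers, leaving out the gene itself. Among entries on neither marker list, Pvalb followed the thalamus sum with Pearson's r = 0.799 (permutation p = 0.00098, adjusted 0.00882) and Spearman's rho = 0.747 (permutation p = 0.00432, adjusted 0.0389), within groups 0.656 and 0.931, and 0.639 without the 2 farthest pups. Htr3a went with the striatum sum (r = 0.834, rho = 0.896, adjusted permutation p = 0.00691 and 0.0027), with r = 0.936 within Aro5 and 0.457 within CPF3. Reln (r = -0.762) and Cck (r = -0.712) went against the striatum sum, with adjusted permutation p = 0.0144 and 0.0142. Their rho, -0.687 and -0.505, had adjusted permutation p = 0.0881 and 0.243. Calb2 and Tcf7l2 are themselves thalamus markers of the list, so that their r, 0.95 for Calb2 and 0.915 and 0.926 for the entries of Tcf7l2, describes how listed markers moved together and is given with no test. The adjustment ran over all 54 relations, those of these listed markers included. This makes the adjusted values of Pvalb, Htr3a, Reln and Cck smaller than without them, so none of these is called as passing. These relations share library and depth on both sides, and the part of the dissection in them was not tested.

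**Figure D5:**
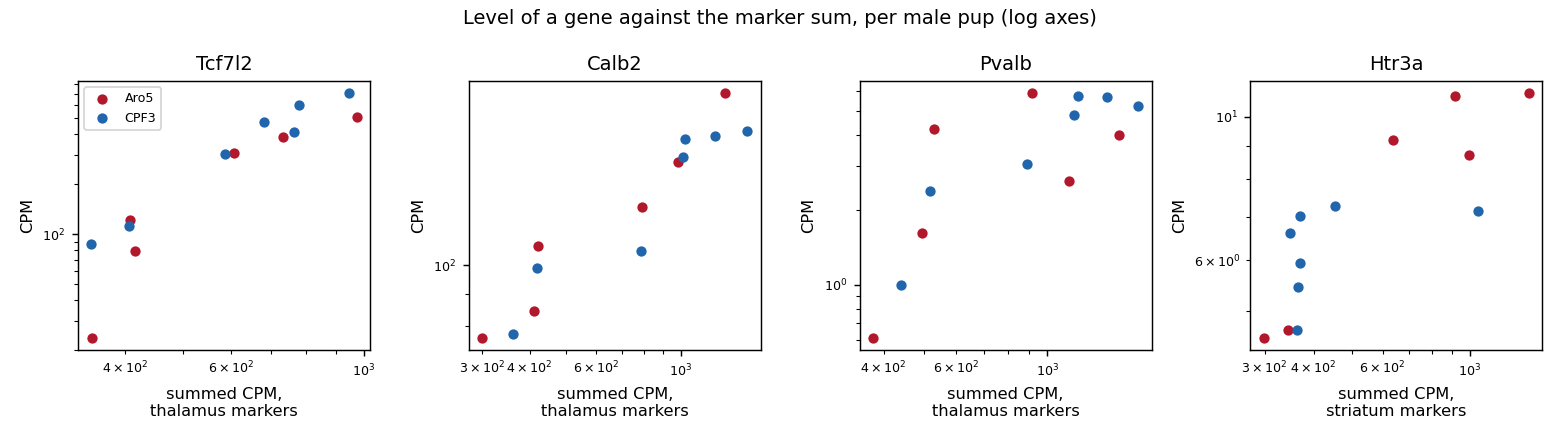
CPM of Tcf7l2 (its higher entry), Calb2, Pvalb and Htr3a (vertical log axes) against the summed CPM of thalamus or striatum markers without the gene itself (horizontal log axes) in the 6 Aro5 (red) and 7 CPF3 (blue) male pups. Calb2 and Tcf7l2 are themselves on the thalamus list. Red and blue points share 1 band in the Calb2 panel, where r is 0.95 over all pups.

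One CPF3 pup, 36-3y, held genes found in no other pup at like levels, named after their values were seen. Tph1, the serotonin-making enzyme of the pineal gland, had 693 counts in 36-3y and 5 to 24 in the other 12 pups. Crx, the transcription factor of photoreceptors and pinealocytes, had 76 counts there and 0 in the others. Gnat2, a cone transducin, had 172 counts against 2 to 7, Rbp3, a retinoid carrier, 83 against 0 to 5, and Aanat, the melatonin enzyme, 45 against 3 to 11. The hypothalamic peptide genes Avp and Oxt had 174 and 76 counts there, against 1 to 9 and 0 to 16. Tph1 stood at -3.36 (SE 1.19), the largest fitted difference of all genes tested, and at -0.01 without 36-3y. Without this pup, 206 genes had an unadjusted p under 0.05 and 0 an adjusted one.

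A further group of genes, also named after their values were seen, separated 36-3y from litter 120. The ribosomal protein gene Rpl36 had 147 CPM in CPF3 36-3y and 11.8 and 12.3 CPM in Aro5 120-1y and 120-2y, with 22.5 to 79.5 CPM in the other pups. Camk2n2, an inhibitor of the kinase CaMKII, had 39.6 CPM in 36-3y, 2.6 and 2.96 CPM in litter 120 and 5.16 to 19.1 CPM elsewhere. The first principal component of log2 CPM, 38.9% of the variation, put both pups of litter 120 and CPF3 38-1y at one end and 36-3y and Aro5 108-1y at the other. With 36-3y and litter 120 left out, 359 genes had an unadjusted p under 0.05 and 0 an adjusted one.

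The direct comparison can be set beside others in the series that used other pups, although the females come partly from the same litters. Between 5 Aro5 and 4 CPF3 females, 0 of 16255 genes had an adjusted p under 0.05 by edgeR (0%) and 0 by DESeq2, with 821 (5.05%) reaching 0.05 unadjusted. Among the 20 genes named above for the smallest p in males, 18 were tested in females and 12 had the same direction there, beside 52.2% of all genes. Slfn4 stood at -1.09 (SE 0.45, unadjusted p = 0.0325 in edgeR), with 0.234 to 0.642 CPM in Aro5 and 0.158 to 1.2 CPM in CPF3 females, and Chrne at -0.58 (unadjusted p = 0.0319). Mt2A stood at -0.83 (unadjusted p = 0.0459). None of these had an adjusted p under 0.05. The difference between the sexes itself was tested in 16886 genes, and 0 had an adjusted p under 0.05 by edgeR or DESeq2 (0%), with 440 (2.61%) reaching 0.05 unadjusted. For Slfn4 it was -0.59 (SE 0.53).

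Between 4 Aro0.5 and 4 CPF1 males, the lower doses, 0 of 15997 genes had an adjusted p under 0.05 by edgeR (0%) and 45 by DESeq2, with 1388 (8.68%) reaching 0.05 unadjusted. Of the 20 genes, 18 were tested there and 7 had the direction seen at the higher doses, beside 45.5% of all genes. Slfn4 stood at -0.48 (SE 0.44). Between 4 CONF and 5 CONSC males, which differ in route and solvent without either chemical, edgeR called 2 of 15387 genes (0.013%), and 152 had an unadjusted p under 0.05 (0.988%). Of the 20 genes, 17 were tested in these controls and 10 had the direction seen in the treated males, beside 62.3% of all genes. Slfn4 stood at 0.79 there (SE 0.53), higher in the fed controls, the opposite direction to the treated males. This difference between comparisons was not tested.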

How the data were processed

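Dorsal hippocampus of PND 6 pups was sequenced with a stranded mRNA protocol. According to the submitters' processing notes the tools were STAR, featureCounts and kallisto with genome build Rnor 6.0, and the authors deposited raw counts per gene for each library; versions, strand setting and the handling of reads with several matches are not given in the sources used here. The labels name a NovaSeq and the methods a HiSeq instrument. Genes with 2 entries in the gene table, or with near copies, may lose or split reads.

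Groups and sex came from the sample labels. The counts of the 13 males entered 1 fit in edgeR 4.0.16 (TMM, filterByExpr by group, quasi-likelihood F test, Benjamini-Hochberg adjustment over all genes tested, threshold 0.05). SE is the size of the log2 difference divided by the square root of F, and intervals are 95%. DESeq2 1.42.0 and limma 3.58.1 in R 4.3.3 served as alternatives. Levels are CPM. Ratios were compared by exact permutation, correlations by 100000 permutations on log2(CPM + 0.5), with Python 3.11.15, numpy 2.4.6, pandas 2.3.3, scipy 1.17.1 and matplotlib 3.10.9. Sequences are from RefSeq. The fitting step was tested on simulated data.

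Named genes are the 10 with the smallest p on each side where fewer passed, every called member or the 2 with the smallest p of each of 36 lists, the 27 genes the study followed, and genes that check sex and tissue; genes outside this rule belong to those lists or are said to have been picked with their values known. Members, lists and tests were chosen with earlier results of these data known. Some genes of these lists are not reported here. Counting error alone limits genes under about 10 counts.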

Additional observations from a re-analysis of the deposited data

Results flagged for a closer look

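A pup was set apart where its distance to the nearest other pup of its group exceeded Dixon's 95% critical value as a share of the group's range, which is the value in brackets below. Of 310 sets of values tested in the Aro5 and CPF3 males, 20 met this (6.45%), and chance gives about 5%. All values are levels in CPM.

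CPF3 36-3y stood apart in 7. It was highest for the heme oxygenase Hmox1, 21.7 against 6.65 to 7.71 in the other CPF3 pups (0.929), the apoptosis gene Bok, 76.6 against 38.5 to 47.8 (0.756), the peptide Cck, 96.6 against 43.9 to 62.4 (0.649), and the nicotinic subunit Chrna4, 60.2 against 38.8 to 47.9 (0.577). It was lowest for Sox5, 73 against 95.2 to 102.1 (0.761), Sox6, 10.1 against 16.2 to 20.5 (0.588), and the ephrin receptor Epha4, 181 against 263 to 324 (0.569). This is also the pup with pineal and hypothalamic genes.

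CPF3 45-1y stood apart in 4: the striatum sum, 1050 against 349 to 454 (0.851), Drd1, 66.4 against 11.7 to 19.4 (0.858), the retinoid receptor Rxrg, 79.6 against 10.3 to 28.9 (0.732), and the calcium binding protein Calb1, 56.4 against 31.8 to 41.4 (0.611).

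Aro5 120-2y was highest for Cyp19a1, 2.1 against 1.08 to 1.28 (0.797), the integrin Itgam of microglia, 6.18 against 3.16 to 4.25 (0.638), the matrix gene Coch, 5.8 against 2.55 to 3.73 (0.636), and Abat, 55.8 against 32.1 to 40.7 (0.636). Aro5 108-1y, dissected at 15.45 h, was highest for LOC102547078, 0.539 against 0.314 to 0.371 (0.748), and lowest for Gria1, 91.7 against 113 to 125 (0.65), and Sox6, 10.7 against 19.6 to 24.5 (0.645). CPF3 44-2y was highest for Vip, 15.9 against 3.97 to 8.59 (0.611), and CPF3 35-5y for LOC100911498, used to check the sex labels, 1.43 against 0 to 0.551 (0.615).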

How the results depend on the processing

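Under the planned and added alternatives edgeR and limma called 0 genes between Aro5 and CPF3 males, and DESeq2 called 1, Slfn4. The number with an unadjusted p under 0.05, 324 of 16312, was 775 of 26784 without a filter beyond 1 count. It was 1609 of 16533, 1036 higher and 573 lower in Aro5, with only the 11 pups inside the time window 10.30 to 13.20 h. With the thalamus and striatum sums as covariates, chosen after seeing the data, it was 195 of 16312. With each pup left out in turn, 16057 to 16436 genes were tested and the number ranged from 147 to 980. It was 980 without Aro5 108-1y, 492 without 115-14y, 206 without 116-6y and 147 without 120-2y. Leaving out CPF3 36-3y gave 206, and leaving out 45-1y gave 773. Other settings gave 268 to 463. For Aro0.5 against CPF1 males the 0 calls became 45 with DESeq2 and 13 without a filter, and ranged from 0 to 4 with each pup left out, 4 without Aro0.5 105-5y. For CONF against CONSC the 2 calls ranged from 0 to 2 with each pup left out, 0 without CONF N5-2y or CONSC 10-2y, 6-5y or 8-4y. The cause was not tested. The females, the sex difference and both ratios kept their side of the threshold in every setting run. The 20 genes with the smallest p in males kept their direction in all of theirs. Those settings reuse the pups by which the 20 were picked, so this is no independent check. No paired analysis was possible because the groups share no replicate numbers, and limma with litter as a random block could not be estimated in males, where 1 litter gave more than 1 pup; leaving out either littermate stands in for it. Depth limits the named genes of fewest counts most, such as Slfn4 at 2 to 31 counts.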

Other observations

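Further lists covered cell types other than those of neighbouring regions. Of 16 tested oligodendrocyte lineage genes, 13 astrocyte, 12 microglia, 13 endothelial and pericyte, 8 ependymal, 10 meningeal and 6 red blood cell genes, 0 had an unadjusted p under 0.05 in edgeR, against 1.99% of all genes, and DESeq2 called 0 of them. Gpr17, of maturing oligodendrocytes, stood at 0.32 (SE 0.15) on the log2 scale, Aro5 minus CPF3, and Pdgfra, of their precursors, at 0.10 (SE 0.09). The astrocyte connexin Gja1 stood at 0.25 (SE 0.13) and Slc1a2, the glutamate transporter of astrocytes, at 0.58 (SE 0.28), from 0.15 to 0.87 over its alternatives, and 12 of the 13 astrocyte intervals lay within 2-fold either way. The microglial Itgam and Tmem119 stood at 0.30 (SE 0.18) and -0.31 (SE 0.21), and the vessel genes Rgs5 and Kcnj8 at 0.18 (SE 0.13) and -0.22 (SE 0.14). Foxc1 and Aldh1a2, of the meninges, stood at -0.30 (SE 0.17) and -0.36 (SE 0.23). Of 13 mitochondrially encoded genes 0 had such a p, and their sum was 57378 to 82040 CPM in Aro5 and 56851 to 79860 CPM in CPF3.

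Over all 36 lists, 513 entries were tested. Of these, 17 had an unadjusted p under 0.05 (3.31%, against 1.99% of all genes), 11 higher and 6 lower in Aro5. The median log2 difference of the 513 entries was 0.01, against -0.01 over all genes tested. The neuronal transcription factors Neurod2 and Neurod6 stood at -0.37 (SE 0.18) and -0.22 (SE 0.16).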
